A study of Mus musculus with 4 samples.

Results

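The 9 genes *Tcf21*, *Twist1*, *Twist2*, *Scx*, *Prrx1*, *Meox1*, *Osr1*, *Sox9* and *Creb3l1* encode transcription factors known from fibroblasts and their mesenchymal precursors. They were taken by name from the 21755 protein-coding genes of the mouse annotation and all 9 were found in it. Open chromatin at and around these genes was followed in cardiac nuclei by ATAC-Seq, in which the transposase Tn5 inserts sequencing adapters into accessible DNA. Nuclei were isolated from whole hearts of C57BL/6 male mice aged 8 to 12 weeks, all of genotype NuTRAP/Cdh5-Cre. In these animals Cre is driven by the promoter of *Cdh5*, which encodes the cadherin of endothelial junctions, and it switches on a GFP reporter. Sorting separated GFP+ (endothelial) from GFP- (non-endothelial) nuclei, with 2 replicates of each. Both populations inherited the same genotype. GFP reports Cre activity at any time in a cell's descent, and the GFP- nuclei were a mixture of every other cell type of the heart.

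The deposited data were 1 list of peaks per population, called by the authors from both replicates together. No value below has a replicate check, no test between populations could be made, and all comparisons are descriptions. The GFP- list held 78912 peaks over 52.1 Mb (median length 469 bp) and the GFP+ list 65008 peaks over 41.8 Mb (459 bp). Of these, 30.3% of GFP- peaks overlapped no GFP+ peak and 13.4% of GFP+ peaks overlapped no GFP- peak. Before peaks were called, the authors thinned each library to the same depth. Read counts per peak and per library are not analysed here, so counting error in single peaks is unknown. Peak size is given as a percentile rank, from 0 to 100, by the area that the peak caller assigned to a peak within its own list. A missing peak means only that none was called. In these bulk populations, fewer nuclei of a cell type and less accessibility per nucleus cannot be told apart.

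Cardiac fibroblasts descend mainly from the epicardium and, like other connective tissue cells, are defined by mesenchymal transcription factors more than by a single marker. TCF21, TWIST1, TWIST2 and scleraxis (the product of *Scx*) are basic helix-loop-helix (bHLH) proteins, which pair with the widely expressed E proteins and bind E-boxes, and Id proteins block that pairing. PRRX1 and MEOX1 are homeodomain proteins, OSR1 is a zinc finger protein, SOX9 binds DNA through an HMG box, and CREB3L1 is a bZIP protein held in the endoplasmic reticulum membrane until it is cleaved.

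The starts of *Tcf21*, *Twist2*, *Prrx1* and *Sox9* lay in a GFP- peak and in no GFP+ peak. The 200 bases just before each start, all inside that GFP- peak, are shown to let their base composition be seen, 5′ to 3′ on the strand of the gene (mm10), with CG dinucleotides in capitals.
Tcf21, chr10:22820175-22820374, minus strand: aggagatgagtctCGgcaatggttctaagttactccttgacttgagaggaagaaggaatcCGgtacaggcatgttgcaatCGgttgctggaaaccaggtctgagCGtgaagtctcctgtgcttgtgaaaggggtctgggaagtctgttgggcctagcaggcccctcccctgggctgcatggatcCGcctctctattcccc
Twist2, chr1:91801261-91801460, plus strand: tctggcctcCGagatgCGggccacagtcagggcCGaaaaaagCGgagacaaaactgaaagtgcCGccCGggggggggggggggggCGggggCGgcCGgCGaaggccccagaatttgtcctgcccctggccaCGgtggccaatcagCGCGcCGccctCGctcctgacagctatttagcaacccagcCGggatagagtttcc
Prrx1, chr1:163313711-163313910, minus strand: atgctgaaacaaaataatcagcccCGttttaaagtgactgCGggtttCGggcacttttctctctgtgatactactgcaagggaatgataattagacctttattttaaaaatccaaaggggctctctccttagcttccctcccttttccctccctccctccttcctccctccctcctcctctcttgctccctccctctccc
Sox9, chr11:112782024-112782223, plus strand: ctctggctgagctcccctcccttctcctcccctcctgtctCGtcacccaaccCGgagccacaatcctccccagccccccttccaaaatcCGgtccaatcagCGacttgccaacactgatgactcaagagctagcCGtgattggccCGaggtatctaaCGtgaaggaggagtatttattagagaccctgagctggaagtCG
CG dinucleotides occurred 16 times before *Twist2*, 8 times before *Sox9*, 5 times before *Tcf21* and 3 times before *Prrx1*. The median over all protein-coding genes was 7. It was 13 for genes with a start peak in both lists and 6 for genes with a start peak only in GFP-. The *Twist2* window also lies in an exon of *Gm29100*, an annotated antisense RNA, and accessibility carries no strand, so the pair cannot be told apart.

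Over the start +/- 250 bp, the ratio of observed to expected CG dinucleotides was 0.352 at *Prrx1*, 0.471 at *Tcf21*, 0.548 at *Meox1*, 0.592 at *Osr1*, 0.652 at *Creb3l1*, 0.701 at *Sox9*, 0.740 at *Scx*, 0.809 at *Twist2* and 0.847 at *Twist1*. The median was 0.591 over all protein-coding genes, 0.795 over genes with a start peak in both lists and 0.467 over genes with a start peak only in GFP-. Of the starts open only in GFP-, *Prrx1* and *Tcf21* thus lay below the median of all genes, *Sox9* between that and the median of genes open in both, and *Twist2* above both. The place of *Sox9* depended on the window. Over the start +/- 500 bp, *Sox9* (0.804) and *Twist2* (0.801) lay above the median of genes open in both (0.740). *Prrx1* (0.470) and *Tcf21* (0.468) stayed below that of all genes (0.558), and *Meox1* (0.416) and *Osr1* (0.468) then did too.

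All 9 factors had a peak within 250 bp of their start in GFP- nuclei, where 56.9% of protein-coding genes had one. In GFP+ nuclei 5 of the 9 did, against 54.8% of protein-coding genes. The remaining 4 starts were open only in GFP-, which is 44.4% of the 9, while 5.45% of all genes with a GFP- start peak had none in GFP+. No factor had a start peak only in GFP+.

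*Tcf21*, the bHLH factor of epicardium-derived cardiac fibroblasts, lies on chr10:22817281-22820174 (minus strand) and its GFP- start peak covered chr10:22819067-22820652. This peak of 1586 bp had an area of 2759 and rank 83.8, its summit was 58 bp upstream of the start, and no GFP+ peak overlapped it. *Gm10824*, an antisense RNA gene, spans the same DNA. *Sox9*, a regulator of cartilage and heart valve precursors on chr11:112782224-112787760 (plus strand), had a GFP- start peak of 1853 bp at chr11:112781248-112783100. It had rank 89.1 and an area of 3858, and no GFP+ peak was called there. *Sox9* and *Tcf21* thus held the highest ranks among the 4 starts that were open only in GFP-.

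*Twist2*, a mesenchymal bHLH factor on chr1:91801461-91848028 (plus strand), had a GFP- start peak of 1154 bp at chr1:91800951-91802104, at rank 69.7. *Prrx1*, a homeobox gene of limb and stromal mesenchyme, lies on chr1:163245119-163313710 (minus strand). Its GFP- start peak of 1298 bp at chr1:163313052-163314349 had rank 69.6. Neither start overlapped a GFP+ peak. The *Prrx1* gap was narrow, since a GFP+ peak lay in an intron nearby and began to count when the window was widened to 1000 bp on either side of the start. A further *Prrx1* transcript start inside the gene had no peak in either list.

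*Twist1*, the other TWIST gene, on chr12:33957671-33959829 (plus strand), was open in both lists but to different extents. In GFP- its start peak spanned 2531 bp (chr12:33956645-33959175, area 4947, rank 92.5) with its summit 49 bp after the start. In GFP+ the peak spanned 906 bp (chr12:33957624-33958529, area 800, rank 55.0) with its summit 506 bp after the start. *Creb3l1*, whose product activates collagen genes once released from the membrane, lies on chr2:91982328-92024502 (minus strand). Its start had rank 89.2 in GFP- (1685 bp) and 78.7 in GFP+ (1372 bp), so that here the lists differed by much less than at *Twist1*.

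*Osr1*, an early factor of the lateral mesoderm on chr12:9570116-9581500 (plus strand), has annotated transcript starts at 9570116 and 9574441. At the first, the rank was 32.6 in GFP- (525 bp) and 12.5 in GFP+ (350 bp). At the second, it was 77.8 in GFP- (1262 bp, area 1995) and 13.0 in GFP+ (559 bp, area 278). The difference between the lists was thus larger at the internal start than at the first one. *1700022H16Rik*, annotated as a bidirectional promoter RNA, overlaps the first start.

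*Meox1*, a homeobox gene of somites on chr11:101877510-101894374 (minus strand), was the 1 factor whose start ranked higher in GFP+. Its start peak had rank 40.8 in GFP- (418 bp, area 583) and 44.4 in GFP+ (466 bp, area 600). *Scx*, the tendon factor on chr15:76457452-76459458 (plus strand), lies inside *Bop1* (chr15:76452989-76477277). A single GFP- peak of 2287 bp (rank 93.6) ran across the *Scx* start and 376 bp into the gene, with its summit -1134 bp from the start. In GFP+ the same stretch held 2 peaks. The larger, of 1298 bp at rank 88.2, reached only 3 bp into the start window, and its summit was at -1127 bp. The other, of 1094 bp at chr15:76457313-76458406 and rank 72.8, covered 955 bp of *Scx* with its summit at -4 bp. The *Scx* start was therefore covered in both lists, and the rank difference of its largest peaks belongs to a summit in *Bop1*.

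**Figure D1:**
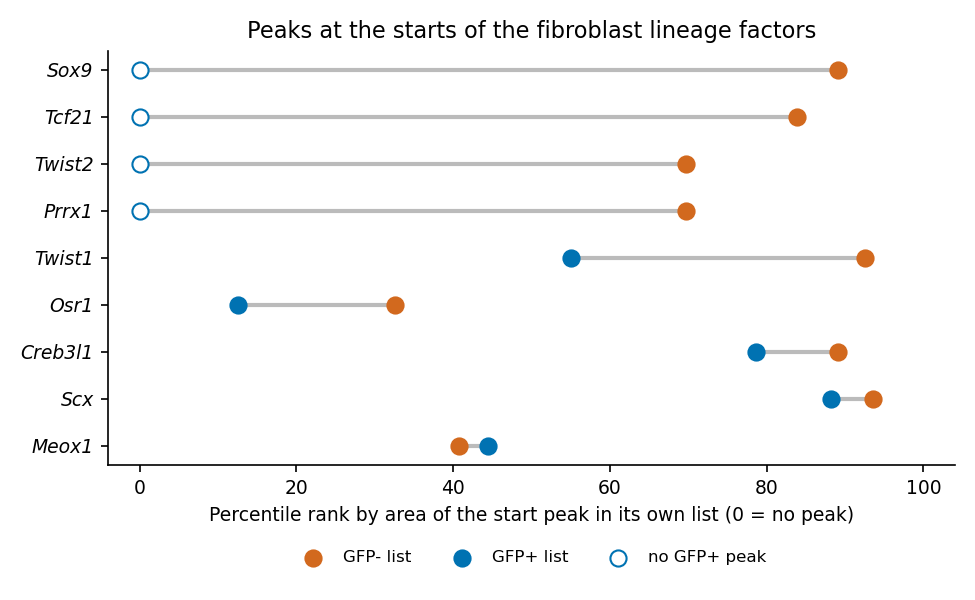
Percentile rank by area (x axis, 0 to 100, with 0 for no peak) of the highest-ranked peak over the start +/- 250 bp of each factor, in the GFP- list (orange) and the GFP+ list (blue, open where no peak was called). *Sox9*, *Tcf21*, *Twist2* and *Prrx1* have no GFP+ point above 0, and *Meox1* alone lies higher in GFP+ (44.4) than in GFP- (40.8).

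With a missing peak set to rank 0, the start ranked more than 20 points lower in GFP+ for 6 of the 9 factors (*Sox9*, *Tcf21*, *Twist2*, *Prrx1*, *Twist1* and, with a difference of -20.1, *Osr1*). Among all genes with a start peak this held for 7.71%. The median difference, GFP+ minus GFP-, was -37.5 over the 9 factors and -0.831 over all genes with a start peak.

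Peaks at and beyond the starts were assigned to the nearest protein-coding gene, within 100 kb. This gave 76 GFP- and 42 GFP+ peaks, which together covered 52.9 kb and 24.9 kb. Of the 76 GFP- peaks, 38 overlapped no GFP+ peak (50%, Wilson 95% interval 39.0 to 61.0%), and the share over all assigned GFP- peaks was 29.0%. Of the 42 GFP+ peaks, 3 overlapped no GFP- peak (7.14%, 2.46 to 19.0%), against 13.0% of all assigned GFP+ peaks. These intervals cover counting error only, and peaks of a gene are not independent. All 3 of the GFP+ peaks without a GFP- partner belonged to *Meox1*. Leaving out the start peaks, 34 of 67 GFP- peaks (50.7%) had no GFP+ partner, against 34.2% of all assigned GFP- peaks outside starts. For GFP+ this held for 3 of 37 (8.11%), against 15.9%. By place, 12 of 25 intronic, 8 of 19 upstream and 14 of 23 downstream GFP- peaks were not shared.

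The factors differed widely from each other. None of the 7 GFP- peaks of *Tcf21* and none of the 4 of *Sox9* overlapped a GFP+ peak, and neither gene was assigned any GFP+ peak. For *Twist2*, 7 of 11 GFP- peaks were not shared, for *Twist1* 2 of 3, for *Prrx1* 7 of 16, for *Meox1* 6 of 18 and for *Creb3l1* 5 of 14. All 3 *Osr1* peaks were shared. *Scx* was assigned no peak in either list, because the summits over it fell to *Bop1*. Among the 4773 genes with at least 5 assigned GFP- peaks, the median share not shared was 28.6%. A share as high as that of *Tcf21* (100%) was found in 20 of them (0.419%) and one as high as that of *Twist2* (63.6%) in 8.49%. The shares of *Prrx1* (43.8%), *Creb3l1* (35.7%) and *Meox1* (33.3%) were reached or passed by 25.7%, 39.6% and 45.8% of these genes, so *Creb3l1* and *Meox1* lay near the middle of the genes compared.

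**Figure D2:**
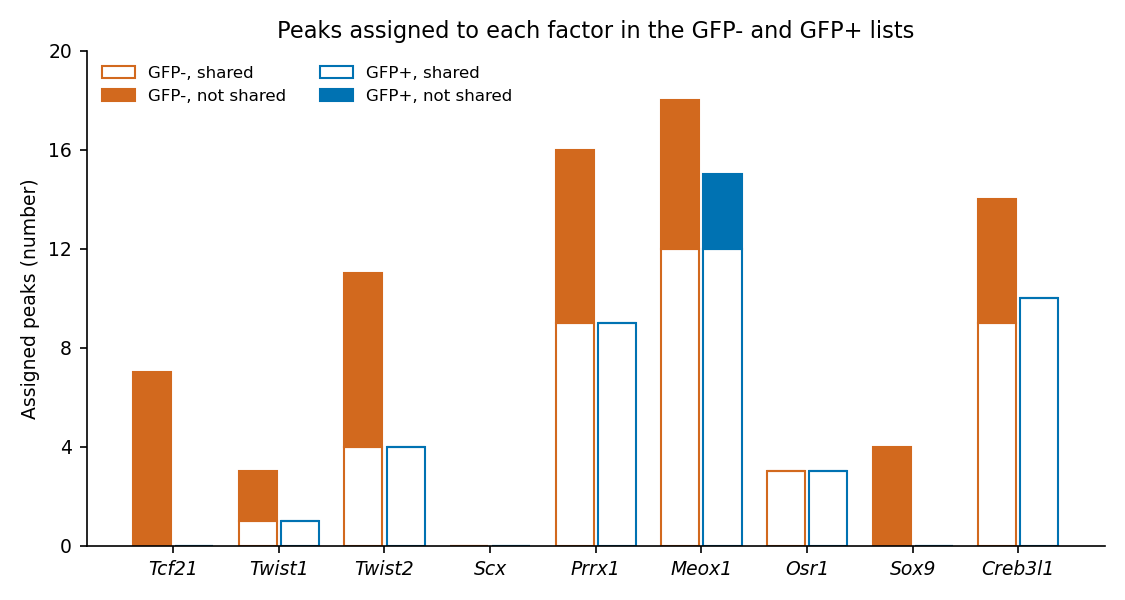
Number of peaks (y axis) assigned to each factor in the GFP- list (orange) and the GFP+ list (blue), with the part that overlaps no peak of the other list filled. *Tcf21* and *Sox9* have only filled GFP- bars, *Scx* has no assigned peak, and the 3 filled GFP+ peaks are all at *Meox1*.

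The strongest non-promoter peaks that were open only in GFP- lay in the flanks of *Tcf21* and *Sox9* and in introns of *Twist2* and *Creb3l1*. Their summits are given as a distance from the start of the gene, with negative values upstream, and the 200 bases around each summit are shown because, outside the starts, they were the largest of the regions without a GFP+ peak at these genes. Sequences are from mm10, plus strand, 5′ to 3′, with short words bound by known factor families in capitals on either strand. These were the E-box words CAGCTG and CATCTG, the AP-1 word TGANTCA, the TEAD word GGAATG, the ETS word CAGGAAGT and the SOX word CCATTGT.
Tcf21 upstream, chr10:22887549-22887748, plus strand: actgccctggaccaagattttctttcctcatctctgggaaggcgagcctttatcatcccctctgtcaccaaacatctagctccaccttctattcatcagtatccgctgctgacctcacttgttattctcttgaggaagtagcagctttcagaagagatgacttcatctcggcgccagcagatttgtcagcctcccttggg
Twist2 intron, chr1:91823542-91823741, plus strand: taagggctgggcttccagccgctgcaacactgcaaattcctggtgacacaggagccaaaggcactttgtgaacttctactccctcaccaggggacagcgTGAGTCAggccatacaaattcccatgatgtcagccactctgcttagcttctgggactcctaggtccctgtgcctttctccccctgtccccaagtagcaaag
Sox9 downstream, chr11:112850549-112850748, plus strand: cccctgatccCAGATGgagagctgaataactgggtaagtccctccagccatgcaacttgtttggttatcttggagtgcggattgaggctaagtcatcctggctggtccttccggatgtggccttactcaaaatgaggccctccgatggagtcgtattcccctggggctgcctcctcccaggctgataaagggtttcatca
Creb3l1 intron, chr2:92012790-92012989, plus strand: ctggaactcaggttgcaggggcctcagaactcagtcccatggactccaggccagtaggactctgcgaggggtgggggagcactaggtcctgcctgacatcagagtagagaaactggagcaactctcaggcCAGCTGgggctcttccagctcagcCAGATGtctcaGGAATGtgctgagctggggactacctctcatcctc
The *Tcf21* window, which holds none of these words, was the summit of a peak at -67.5 kb with rank 77.4, in the gap between *Tcf21* and *Eya4*. The *Twist2* window was the summit of an intronic peak at 22.2 kb with rank 83.2 and held 1 TGANTCA, and it also lies in an exon of *Gm29101*, a sense intronic RNA. The *Sox9* window was the summit of a peak at 68.4 kb with rank 84.6 and held 1 CATCTG. The *Creb3l1* window was the summit of an intronic peak at 11.6 kb with rank 76.4 and held both E-box words and the TEAD word, with 1 match each.

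Around *Tcf21* the GFP- peaks formed an upstream group at -48.6, -55.1, -55.6 and -67.5 kb with ranks of 35.3, 61.8, 43.1 and 77.4. A smaller peak at -1.29 kb had rank 13.0 and a downstream peak at 6.44 kb rank 58.7. The nearest coding neighbours of *Tcf21* are *Tbpl1*, 85.3 kb away, and *Eya4*, 283 kb away. *Sox9* stands in a gene desert, with *Slc39a11* 457 kb and *Kcnj2* 1705 kb away, and its other GFP- peaks lay at 62.5 kb (rank 57.3) and 14.3 kb (rank 16.6). Peaks farther than 100 kb into that desert were not assigned to it.

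*Twist2* had its largest GFP- peak in neither promoter nor intron but downstream of the gene, at 55.8 kb, with rank 91.7 and a length of 1977 bp. The GFP+ peak in the same place had rank 29.3 and 478 bp. Its other shared peaks at 59.0 and 73.3 kb went from ranks 46.7 and 42.3 in GFP- to 32.4 and 17.5 in GFP+, and the fourth, at -21.4 kb, went from 12.7 to 15.7. *Twist1* had its remaining GFP- peaks at 8.95 kb (rank 16.2) and 9.93 kb (rank 26.6), both without GFP+ overlap. *Osr1* had a downstream peak at 14.9 kb of rank 75.7 in GFP- and 51.6 in GFP+.

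**Figure D3:**
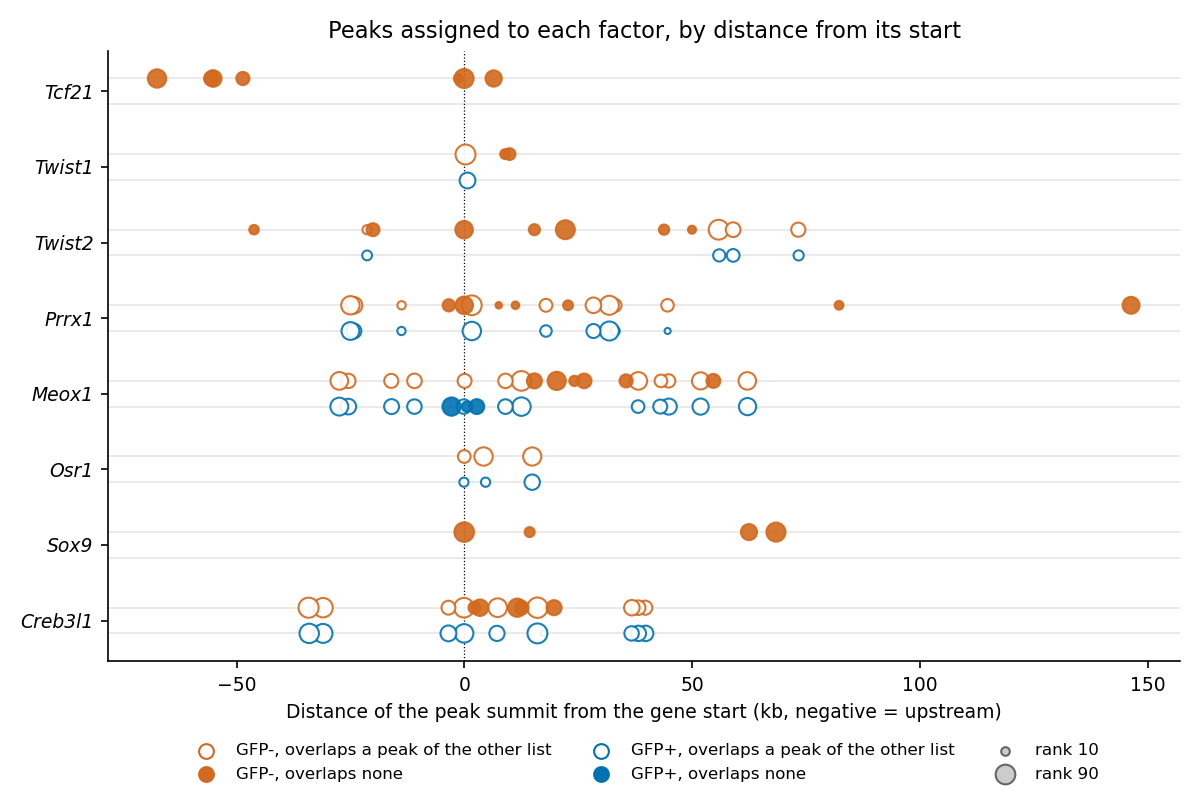
Summits of the assigned peaks of each factor by distance from the gene start (x axis, kb, negative upstream), with GFP- (orange) above GFP+ (blue), filled where no peak of the other list overlaps, and with symbol area growing with rank. *Tcf21* and *Sox9* have empty GFP+ lines, and *Prrx1*, *Meox1* and *Creb3l1* show mostly open symbols in pairs. *Scx*, with no assigned peak, is left out.

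*Meox1*, *Prrx1* and *Creb3l1* kept many peaks in both populations. The next windows show the largest *Meox1* peak that was open only in GFP+ and the intronic summits of *Prrx1* and *Creb3l1* that lay within 1 bp of each other in the lists, in the same format as above, and none of them holds any of the words.
Meox1 upstream, chr11:101897089-101897288, plus strand: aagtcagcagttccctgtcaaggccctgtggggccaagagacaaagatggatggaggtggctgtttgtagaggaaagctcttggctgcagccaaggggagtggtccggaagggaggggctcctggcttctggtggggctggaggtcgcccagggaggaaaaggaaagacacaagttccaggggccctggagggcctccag
Prrx1 intron, chr1:163281774-163281973, plus strand: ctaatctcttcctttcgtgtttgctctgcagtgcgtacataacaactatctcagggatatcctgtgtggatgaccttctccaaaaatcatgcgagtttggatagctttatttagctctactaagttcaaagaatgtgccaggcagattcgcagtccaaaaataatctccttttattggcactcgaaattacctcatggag
Creb3l1 intron, chr2:92008350-92008549, plus strand: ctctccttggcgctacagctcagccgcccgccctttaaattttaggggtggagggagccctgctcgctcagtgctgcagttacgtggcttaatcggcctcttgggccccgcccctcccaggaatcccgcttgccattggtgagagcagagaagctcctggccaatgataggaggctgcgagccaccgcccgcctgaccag
The *Meox1* peak, at -2.81 kb, spanned 965 bp (chr11:101896624-101897588) and had rank 76.0 with an area of 1734. The *Prrx1* peak, at 31.8 kb, had rank 84.1 in GFP- and 83.7 in GFP+ and lies in *Gm20471*, an antisense RNA gene. The *Creb3l1* peak, at 16.1 kb, had rank 97.6 in GFP- (2572 bp, area 8157) and 92.4 in GFP+ (1958 bp, area 4553). These intronic elements of *Prrx1* and *Creb3l1* were thus called in endothelial nuclei at ranks close to those in the other nuclei, including that of *Prrx1*, whose start had no GFP+ peak.

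At *Prrx1*, all 16 merged regions ranked lower in GFP+, against 67.8% of the regions of all genes. In 7 of the 16 no GFP+ peak was called, so that the GFP+ rank was set to 0. The rank was more than 20 points lower in 5 (31.25%, all genes 23.0%), and the smallest difference was -0.229. The intronic region closest to the start, at 1.64 kb, went from rank 90.7 (1825 bp) to 78.1 (1013 bp). The pair upstream at -25.0 and -24.2 kb went from 77.7 and 61.7 to 72.1 and 47.5, and the intronic region at 28.3 kb from 53.6 to 41.6. The farthest GFP- peak lay 146 kb from the start, well past the 3′ end of this gene of 68.6 kb, and had rank 64.3 and no GFP+ overlap.

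At *Meox1*, 10 of 21 regions ranked higher in GFP+ and 11 lower (52.4%, all genes 67.8%). Besides the peak at -2.81 kb, the GFP+ list alone had an intronic peak at 2.74 kb (rank 47.8) and an exonic peak with its summit 589 bp after the start (rank 19.4). The GFP- list alone had an intronic peak at 15.4 kb (rank 49.1) and 5 downstream peaks. The largest of these, at 20.3 kb, had rank 76.2, and those at 24.2, 26.3, 35.5 and 54.7 kb had ranks of 18.1, 46.1, 35.4 and 41.0. The largest shared element, intronic at 12.5 kb, had rank 89.4 in GFP- and 78.3 in GFP+. A shared upstream element at -27.5 kb kept nearly the same rank, 71.1 and 72.8.

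At *Creb3l1*, 11 of 14 regions ranked lower in GFP+ (78.6%, all genes 67.8%) and 3 higher. The upstream elements at -34.2 and -31.0 kb had ranks of 94.1 and 87.6 in GFP- and of 87.5 and 83.0 in GFP+. In both lists the summit window at -31.0 kb also lies over an exon of *2900072N19Rik*, another annotated gene. The intronic element at 7.32 kb went from 80.4 to 50.2, and the upstream element at -3.49 kb went the other way, from 40.6 to 55.4. *Dgkz* lies 6.46 kb from *Creb3l1*, the shortest such gap among the 8 factors outside another gene, so peaks beyond *Dgkz* on that side were not assigned to it.

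When overlapping peaks of both lists were merged, the factors had 79 regions, of which 38 held peaks of both lists, 38 held GFP- peaks alone and 3 held GFP+ peaks alone. Of the 79914 regions of all genes, 50850 held peaks of both lists, 21145 GFP- peaks alone and 7919 GFP+ peaks alone. Among the 79 regions of the factors, 65 ranked lower in GFP+ (82.3%), against 67.8% of those of all genes. The rank was more than 20 points lower in 37 (46.8%, all genes 23.0%) and more than 20 points higher in 3 (3.80%, all genes 7.47%). The median difference, GFP+ minus GFP-, was -16.6 over the 79 regions and -3.69 over all. By factor the median was -70.9 for *Sox9*, -58.7 for *Tcf21*, -26.6 for *Twist1*, -24.1 for *Osr1*, -22.6 for *Twist2*, -12.3 for *Prrx1*, -9.44 for *Creb3l1* and -0.589 for *Meox1*. Neighbours in this order rest on 3 to 21 regions each and have no replicate error, so no pair of them was tested.

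**Figure D4:**
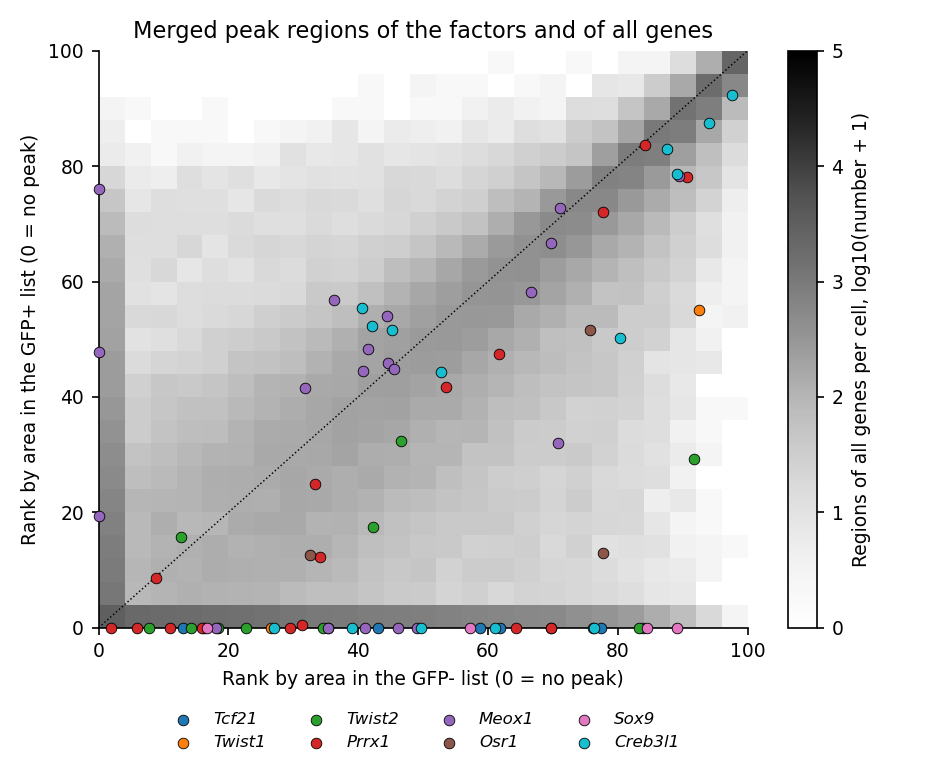
Rank by area in the GFP- list (x axis) and the GFP+ list (y axis) of the 79 merged regions of the factors (coloured points), over the number of regions of all genes in each cell of a grid (grey, log10 scale), with 0 for a list without a peak. The 38 regions open only in GFP- lie on the x axis, and 3 *Meox1* regions lie on the y axis.

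Where both lists had a peak, the differences were smaller. Among 39 overlapping pairs, the GFP+ peak ranked lower in 28 (71.8%, all genes 65.4%) and was the shorter one in 28 (71.8%, all genes 62.7%). The median length was 557 bp in GFP- and 463 bp in GFP+. The median rank difference was -8.39 for the factors and -2.04 for all genes, and summits lay a median of 25 bp apart, against 20 bp over all genes.

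The words were counted within 200 bp around each summit, on both strands, next to all peaks of the same list. CAGCTG, an E-box of the type bound by TCF21, was present in 12 of the 38 GFP- peaks of the factors that were not shared (31.6%, 95% interval 19.1 to 47.5%) and in 6 of the 38 shared ones (15.8%). Over all GFP- peaks the corresponding shares were 28.6% and 19.1%. CATCTG, an E-box of the type bound by TWIST proteins, was present in 18.4% of the not shared peaks, against 22.8% of all such peaks. TGANTCA, the AP-1 word, was present in 15.8% and GGAATG, the TEAD word, also in 15.8%, against 14.8% and 15.7%. CAGCTG and TGANTCA read the same on both strands. The share of each of these 4 words in the not shared GFP- peaks of the factors was near that of all such peaks. CAGGAAGT, an ETS word, was present in 1 of the 76 GFP- and in 0 of the 42 GFP+ peaks of the factors, and in 2.89% and 3.17% of all peaks. CCATTGT, a SOX word, was present in 2 GFP- (2.63%) and 2 GFP+ (4.76%) peaks of the factors, and in 2.18% and 2.81% of all peaks. These were the same shared intronic elements of *Meox1* and *Prrx1* in both lists.

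The relatives of the factors did not all share their pattern. Among 8 paralogues, *Msc*, the closest relative of *Tcf21* and encoding musculin, had a GFP- start peak at rank 86.2, 10 assigned GFP- peaks and no GFP+ peak. It was also the gene nearest to *Tcf21* among 4768 candidates, by the Euclidean distance over the start rank in each list and the share of GFP- peaks with GFP+ overlap. The next were *Kcnt2*, *Fam198a*, *Pi15* and *Svep1*, with GFP- start ranks of 80.3, 76.5, 71.3 and 71.1, no GFP+ start peak and 5 to 9 GFP- peaks, none shared. *Svep1* also had 2 assigned GFP+ peaks, neither of them shared. All these genes equalled *Tcf21* in the other values, so their order rests on the GFP- start rank alone. *Prrx2*, the relative of *Prrx1*, had a GFP- start peak at rank 35.6 and none in GFP+, although at another of its transcript starts both lists had a peak (50.2 and 7.92). *Meox2* and *Tcf15* were open in both lists at close ranks (82.1 and 79.8 for *Meox2*, 74.1 and 77.4 for *Tcf15*). *Osr2* (83.7 and 73.3), *Sox8* (79.4 and 40.6) and *Creb3l2* (95.5 and 94.9) were also open in both, and *Sox10* had no start peak.

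The E proteins that pair with bHLH factors were open in both populations. *Tcf3* had ranks of 97.9 in GFP- and 98.3 in GFP+, *Tcf12* 91.9 and 87.3, and *Tcf4* had a GFP+ peak alone at the start of its gene record (28.8) but 91.2 and 92.1 over all its transcript starts. A GFP+ start peak without a GFP- one was found for 1.82% of genes with a GFP+ start peak. The *Id* genes, which encode their inhibitors, had high GFP- ranks, and 3 of 4 also had a GFP+ start peak. *Id1* had 92.6 and 96.0, *Id3* 98.7 and 99.0, and *Id4* 96.8 and 94.7. *Id2* had rank 98.6 in GFP- and no GFP+ peak at the start of its gene record, but 89.2 in GFP+ over all its transcript starts. Of the 52 GFP- peaks assigned to E proteins 15.4% were not shared, and of the 36 assigned to *Id* genes 30.6%. The share over all assigned GFP- peaks was 29.0%, so that of the *Id* genes was near it.

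Of 10 other mesenchymal factors, 9 had a start peak in both lists, and the last, *Runx2*, had one in both at another transcript start. *Snai2* had ranks of 92.4 and 90.3 and *Zeb1* 94.7 and 96.4, while *Gli2*, an effector of hedgehog signalling, had 89.3 and 54.2. Over all peaks assigned to these genes, start peaks included, 64 of 109 GFP- peaks were not shared (58.7%, all assigned GFP- peaks 29.0%). Among them were 19 of 28 at *Gli2* and 17 of 25 at *Zeb1*.

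A list of 12 genes encoding matrix proteins, a matrix enzyme (*Lox*) and receptors (*Pdgfra*, *Ddr2*) of fibroblasts often had the start pattern of *Tcf21*. Of the 12, 8 had a start peak only in GFP- (*Pdgfra*, *Col1a1*, *Col1a2*, *Col3a1*, *Dcn*, *Dpt*, *Ddr2* and *Lox*), 2 in both (*Col5a1* and *Fn1*) and 2 in neither (*Postn* and *Lum*). The 8 are 80% of those with a GFP- start peak, against 5.45% over all genes. With any transcript start the 8 became 6, as *Pdgfra* (96.5 and 87.0) and *Col1a1* (95.6 and 80.7) had GFP+ peaks elsewhere. Of the 133 GFP- peaks assigned to the 12 genes, 98 were not shared (73.7%, all assigned GFP- peaks 29.0%). Of 6 tendon genes that accompany *Scx*, 4 had no start peak in either list and *Mkx* and *Egr1* had one in both. Over all protein-coding genes, 9159 of 21755 had none. The cartilage genes that accompany *Sox9* were similar, with 4 of 6 in neither list, *Col11a2* in both (67.4 and 77.1) and *Col2a1*, which encodes type II collagen, in GFP+ alone at rank 11.2. With any transcript start, 3 of 6 tendon and 3 of 6 cartilage genes had no peak, against 8112 of all 21755. *Comp*, counted as a tendon and as a cartilage gene, then had a GFP- peak (52.1) and a GFP+ peak (64.7).

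**Figure D5:**
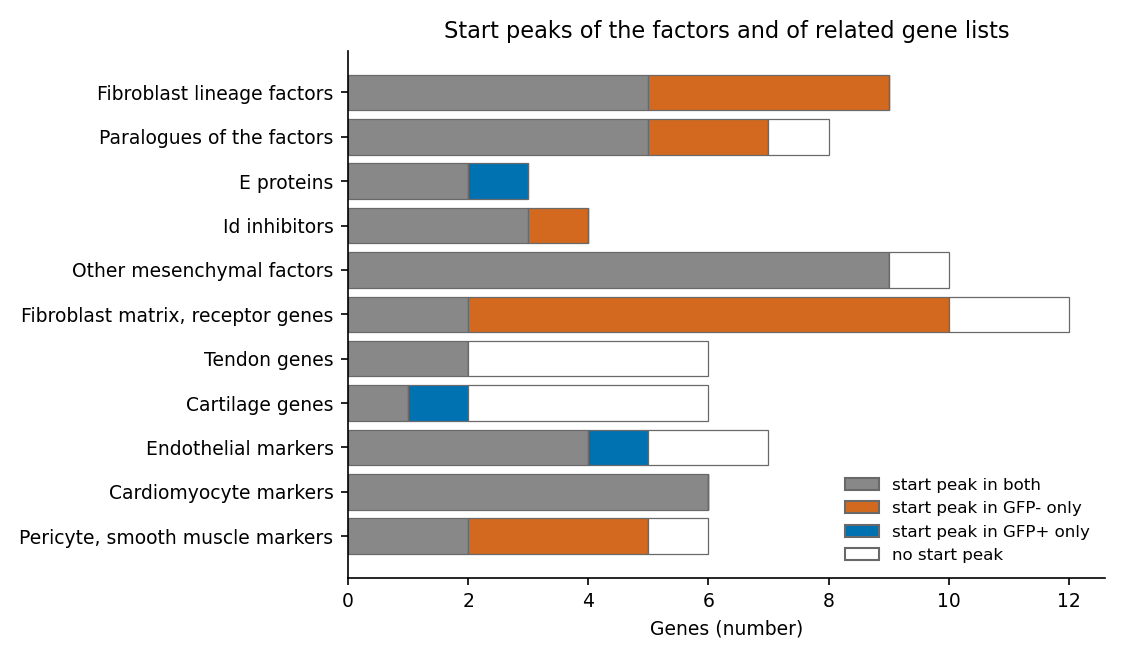
Number of genes (x axis) with start peaks in both lists (grey), in the GFP- list alone (orange), in the GFP+ list alone (blue) or nowhere (white), for the 9 factors, 7 related gene lists and 3 marker lists. The GFP- only part is 4 of 9 for the factors, 8 of 12 for the matrix and receptor genes and 0 of 10 for the other mesenchymal factors.

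Markers of the sorted populations were read in the same way. Of 7 endothelial markers, 4 had start peaks in both lists. *Cdh5* went from 18.0 in GFP- to 85.3 in GFP+ and *Tie1* from 48.3 to 87.9, and *Kdr* (74.3 in GFP-) was also higher in GFP+, while *Tek* went the other way, from 81.1 to 54.1. *Egfl7* had a start peak in GFP+ alone (rank 93.0), and *Pecam1* and *Erg* had none. With any transcript start, both had a GFP+ and no GFP- peak. All 6 cardiomyocyte markers were open at the start in both lists, at ranks of at least 82.7 in GFP- and 86.0 in GFP+. The 5 fibroblast markers had GFP- start ranks from 51.5 to 95.6 and no GFP+ start peak. All 5 also belong to the matrix and receptor list above, so this repeats part of that result. Of 6 pericyte and smooth muscle markers, 3 were open only in GFP- (*Pdgfrb* at 83.0, *Rgs5* at 16.2 and *Tagln* at 7.99), *Myh11* (73.7 and 60.3) and *Cspg4* (85.6 and 76.1) in both and *Acta2* in neither. With any transcript start, *Acta2* had a GFP- peak alone (27.7). Then 4 of 6 were open only in GFP-, and 3 of 5 fibroblast markers were. Of the 68 GFP- peaks assigned to fibroblast markers, 75% were not shared, and of the 35 assigned to pericyte and smooth muscle markers 54.3%. The share over all assigned GFP- peaks was 29.0%. Start peaks in both lists were found for 1 of 4 macrophage, 1 of 3 epicardial and 1 of 3 Schwann cell markers, and the rest had none. With a missing peak at rank 0, 5 of 5 fibroblast markers and 1 of the 5 pericyte and smooth muscle markers with a start peak (*Pdgfrb*) dropped by over 20 rank points from GFP- to GFP+. *Rgs5* and *Tagln* ranked under 20 in GFP- and could not drop that far. With any transcript start, 3 of 5 fibroblast and 2 of 6 pericyte and smooth muscle markers dropped by over 20 points. The share of either cell type in the GFP- peaks of the factors was not tested.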

How the data were processed

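ATAC-Seq was performed on GFP+ and GFP- heart nuclei, with 2 replicates per population, grouped by the labels. The authors mapped fastp-trimmed reads to mm10 with Bowtie2 (2.3.5.1 in the submitters' processing notes). They removed duplicates (Picard), brought the libraries to a common read number and ran Genrich once per population. Downsampling evens the depth, but each list still depends on its own calling. For each peak the authors deposited a signal (the area under the caller's p-value curve, never under 200), a -log10 p-value of the summit and a score limited to 1000.

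Peaks were ranked by area within their list. Peaks that overlapped by at least 1 bp were shared. A start peak overlapped the 5′ end of the gene record +/- 250 bp (GENCODE M21, GRCm38). For the counts of assigned peaks, every peak, start peaks included, went to the protein-coding gene body nearest to the summit, within 100 kb. Sequence came from GRCm38.p6. Python 3.11.15 was used with pysam 0.24.0, pandas 2.3.3, numpy 2.4.6, matplotlib 3.10.9 and scipy 1.17.1. Overlap, assignment and start steps were tested on simulated peaks.

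With 1 list per population no test was possible, and Wilson 95% intervals cover counting error only. The factors and related gene lists were chosen with earlier results of these data known. Genes named are the 9 factors, the related and marker lists, their neighbours and the 5 genes nearest to *Tcf21*. For each factor, the start peak and the highest-ranked other peak were described in full, and further peaks were described after their values were seen. Alternatives changed the overlap, threshold, list length, start window, flank, gene assignment, ranking measure, word window and the window for the CG ratio.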

Additional observations from a re-analysis of the deposited data

How the results depend on the processing

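No paired analysis was possible because each population has 1 list called from both replicates together, and for the same reason no replicate could be left out. The number of starts open only in GFP- (4) ranged from 3 to 5 over 5 alternatives. *Prrx1* was lost with a window of 1000 bp, *Twist1* was added when 50% of both peaks had to overlap, *Osr1* was added above the 25th percentile by area, and *Tcf21*, *Twist2* and *Sox9* stayed in all 5. The share of GFP- peaks that were not shared ranged from 43.1 to 60.5% over 6 alternatives and was above that of all genes in each, by 13.0 (nearest gene of every type) to 23.5 percentage points. That of GFP+ peaks was 28.6% with the 50% overlap, above the 26.1% of all genes, and 6.25 to 11.9%, below all genes, in the other 5. The median rank difference over regions moved to -30.8 above the 25th percentile and to -9.72 with the GFP- list cut to the length of the GFP+ list, with -3.47 and 1.27 over all genes, and was negative in all 8 alternatives. In 400 bp windows the share of GFP- peaks of the factors with CATCTG was 27.6% and with GGAATG 25%, as longer windows hold more words. Any transcript start in place of the gene record, an alternative chosen after seeing the data, left 1 of 2 paralogues, 0 of 1 *Id* genes and 3 of 5 fibroblast markers open only in GFP-. The pericyte and smooth muscle markers open only in GFP- went from 3 to 4 with it. Without read counts, a missing peak cannot be separated from a signal just under the caller's threshold.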
